A study of Mus musculus with 12 samples.

Results

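The 44 genes described here are genes of the cell cycle and of mitosis, taken by symbol from the 54532 genes of a mouse liver count table. They were split into 21 genes of the G1 to S phase transition and DNA replication (G1/S) and 23 genes of G2 phase and mitosis (G2/M). All 44 were in the table, and all were among the 14686 genes that passed the filter on low counts and were tested. RNA sequencing was run on 12 liver libraries, 3 in each of 4 groups, from mice that the labels call WT, 9 days after an adenovirus. The groups were ANG8 (adenovirus for overexpression of ANGPTL8), Ad_GFP (control adenovirus), shANG8 (adenovirus for knockdown of ANGPTL8) and shCtrl (shControl adenovirus). All 4 groups thus received an adenovirus, and a liver without virus was not analysed here. ANGPTL8 is a secreted protein of liver and fat that takes part in the control of lipoprotein lipase, and the study addressed its part in lipid metabolism. The labels used here give no age, sex, virus dose or hairpin sequence, and they do not say that the libraries came from separate mice, so the tests gauge only how much these samples vary, and that variation can be technical.

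Cells commit to division in G1, when cyclins D and E with their kinases release E2F factors from pocket proteins and E2F raises the genes of DNA replication. Later in the cycle the B-Myb and FOXM1 factors act with the MuvB complex at promoter elements called CHR, often beside CCAAT boxes bound by NF-Y, and raise the genes of mitosis. In adult liver most hepatocytes rest outside the cycle, and they can re-enter it after injury or loss of tissue, while immune and other nonparenchymal cells of the liver can also divide. In bulk RNA of this kind, fewer cells of a type and less RNA per cell cannot be told apart.

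Promoter sequences are shown because the 2 classes of member differ in them. RefSeq promoters of the build GRCm38.p6, each 250 bases before to 50 bases after a transcription start, were matched by symbol for 35 of the 44 members, some with more than 1 start. The letters TTTGAA, the core of the CHR, were sought on both strands, as were CCAAT and the E2F site as TTTCCCGC, TTTGGCGC, TTTCGCGC or TTTGCCGC. In the sequences printed, no match of a motif overlaps a match of another motif. TTTGAA stood in 14 of 19 G2/M promoters (73.7%) and in 2 of 20 G1/S promoters, against 17.9% of all 32851 promoters. CCAAT stood in 89.5% of the G2/M and 70.0% of the G1/S promoters, against 37.4% of all. The E2F letters stood in 9 of 20 G1/S promoters (45.0%) and in 1 of 19 G2/M promoters (5.26%), that of Cdk1, against 2.26% of all. The sequences are those of the 3 G2/M members and the 3 G1/S members with a promoter entry and the smallest p in the ANG8 to Ad_GFP comparison. Mcm3 was added, which lies outside that rule and was chosen after the motif counts were seen. Motif letters are in capitals, all 7 genes lie on the minus strand, and each sequence is printed 5′ to 3′ as read on that strand.
Top2a: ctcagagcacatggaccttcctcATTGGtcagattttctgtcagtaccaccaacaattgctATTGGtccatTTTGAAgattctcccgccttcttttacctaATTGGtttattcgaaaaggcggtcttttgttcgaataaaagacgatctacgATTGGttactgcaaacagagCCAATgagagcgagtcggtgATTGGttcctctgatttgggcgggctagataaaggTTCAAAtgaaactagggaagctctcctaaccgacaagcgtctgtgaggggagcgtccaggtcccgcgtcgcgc
Mki67: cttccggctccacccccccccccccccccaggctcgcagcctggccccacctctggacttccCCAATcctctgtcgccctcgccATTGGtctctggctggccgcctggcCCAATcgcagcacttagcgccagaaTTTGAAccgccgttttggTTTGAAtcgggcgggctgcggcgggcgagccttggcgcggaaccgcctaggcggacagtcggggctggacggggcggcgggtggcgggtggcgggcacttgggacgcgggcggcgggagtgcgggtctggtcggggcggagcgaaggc
Ccnb2: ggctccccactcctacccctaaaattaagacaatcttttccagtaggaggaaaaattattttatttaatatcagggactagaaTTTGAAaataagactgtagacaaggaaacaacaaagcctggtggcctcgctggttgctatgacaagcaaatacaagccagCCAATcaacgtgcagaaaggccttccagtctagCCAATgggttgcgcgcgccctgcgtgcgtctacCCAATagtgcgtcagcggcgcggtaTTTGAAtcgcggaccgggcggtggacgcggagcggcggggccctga
Ccne1: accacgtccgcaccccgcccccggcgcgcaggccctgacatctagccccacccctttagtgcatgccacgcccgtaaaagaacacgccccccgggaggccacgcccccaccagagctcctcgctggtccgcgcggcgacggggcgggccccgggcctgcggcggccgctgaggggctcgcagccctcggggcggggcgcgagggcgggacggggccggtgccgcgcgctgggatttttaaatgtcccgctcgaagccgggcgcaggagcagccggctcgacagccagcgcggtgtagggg
Mcm2: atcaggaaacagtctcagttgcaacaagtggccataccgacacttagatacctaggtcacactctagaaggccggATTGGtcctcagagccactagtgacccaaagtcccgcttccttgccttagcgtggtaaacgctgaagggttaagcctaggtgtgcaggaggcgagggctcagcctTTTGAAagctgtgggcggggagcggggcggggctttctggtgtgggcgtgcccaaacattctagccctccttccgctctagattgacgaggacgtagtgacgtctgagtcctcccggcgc
E2f1: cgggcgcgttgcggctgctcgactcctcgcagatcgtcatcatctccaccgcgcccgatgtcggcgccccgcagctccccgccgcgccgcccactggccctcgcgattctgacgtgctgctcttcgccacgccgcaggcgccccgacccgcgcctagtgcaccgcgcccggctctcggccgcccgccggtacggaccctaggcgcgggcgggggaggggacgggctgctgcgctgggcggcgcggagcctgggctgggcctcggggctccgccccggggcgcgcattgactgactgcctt
Mcm3: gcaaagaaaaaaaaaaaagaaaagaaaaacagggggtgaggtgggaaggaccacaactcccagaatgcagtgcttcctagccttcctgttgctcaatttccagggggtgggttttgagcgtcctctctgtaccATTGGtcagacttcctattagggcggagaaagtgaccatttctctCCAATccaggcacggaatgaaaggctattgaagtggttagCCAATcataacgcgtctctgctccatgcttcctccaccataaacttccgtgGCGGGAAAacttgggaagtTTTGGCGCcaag
The windows are chr11:99024140-99024439 for Top2a, chr7:135716330-135716629 for Mki67, chr9:70421505-70421804 for Ccnb2, chr7:38107441-38107740 for Ccne1, chr6:88898731-88899030 for Mcm2, chr2:154569377-154569676 for E2f1 and chr1:20820263-20820562 for Mcm3. The E2f1 window lies inside the gene as the count table delimits it, which ends at position 154569892. Top2a carries TTTGAA letters at positions -179 to -174 and, on the other strand, at -23 to -18, counted from the start site. Mki67 carries them at -116 to -111 and at -98 to -93, and Ccnb2 at -167 to -162 and at 5 to 10. Mcm3 carries E2F letters at 20 to 27, on the other strand, and at 39 to 46. Mcm2 carries CCAAT letters at -175 to -171, on the other strand, and TTTGAA at -70 to -65. The windows of Ccne1 and E2f1 hold none of these letters. The E2f1 window does not reach position 154569892, so the sequence upstream of the gene was not searched for E2f1. A match is a run of letters in this window, and no binding was measured.

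Libraries held 12537083 to 15144312 counts. Mitochondrial genes took 39.0%, 43.8% and 22.5% of the counts in ANG8, 19.8%, 34.9% and 26.4% in Ad_GFP, 19.3% to 22.9% in shANG8 and 22.9% to 24.2% in shCtrl. Levels are CPM values, the counts of a gene per total counts of its library, after TMM scaling, which sets the libraries to a common level by their mid-range genes. Angptl8 itself stood at 165, 314 and 172 CPM in ANG8 and at 96.8, 80.4 and 90.05 CPM in Ad_GFP, a log2 fold change of 1.28 (SE 0.33, edgeR adjusted p = 0.0201). It stood at 144, 143 and 79.2 CPM in shANG8, against 340, 391 and 167 CPM in shCtrl, a log2 fold change of -1.29 (SE 0.33, edgeR adjusted p = 0.235) that was not called. The overexpression call of Angptl8 was lost under 5 of 20 alternatives, with an adjusted p of up to 0.0973, and the knockdown passed under 4 of 20. All 3 shANG8 libraries lay below all 3 shCtrl libraries. Angptl8 averaged 217 ± 84.0 CPM in ANG8 and 89.1 ± 8.24 CPM in Ad_GFP, and 122 ± 37.1 CPM in shANG8 and 299 ± 117 CPM in shCtrl (SD, n = 3 each). All shCtrl libraries thus lay above the Ad_GFP libraries, and 2 of the 3 lay above every ANG8 library.

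Overexpression was examined as ANG8 minus Ad_GFP. Of the 44 members, 25 rose, 0 fell and 19 were not called in edgeR's quasi-likelihood test at an adjusted p under 0.05, where 7.08% of all tested genes rose and 6.39% fell. Members of both classes were among them, 12 of 21 G1/S genes and 13 of 23 G2/M genes. The median log2 fold change was 1.40 over the members, with a range of -0.01 to 2.72, and -0.00 over all tested genes. It was 1.09 in G1/S and 1.51 in G2/M, and fitted changes of G2/M members ran from 0.98 to 2.72, all above 0. In 38 of the 44 members each ANG8 library lay above each Ad_GFP library, as it did in 17.9% of all tested genes. Those 38 comprised 22 of 23 G2/M members, with Prc1 as the exception, and 16 of 21 G1/S members. The exceptions in G1/S were Cdk2, Mcm7, Rrm2, Tyms and Tk1. The count of called members fell to 12 without Ad_GFP_1, 12 without Ad_GFP_2 and 18 without Ad_GFP_3. It fell to 12 without ANG8_1 and 15 without ANG8_3. The share of all tested genes that rose fell too, to 3.61%, 3.68%, 5.56%, 3.81% and 4.95% in the same order. Fitted to the ANG8 and Ad_GFP libraries only, the count was 36, with 24 of the 25 kept, where 8.59% of all genes rose.

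**Figure D1:**
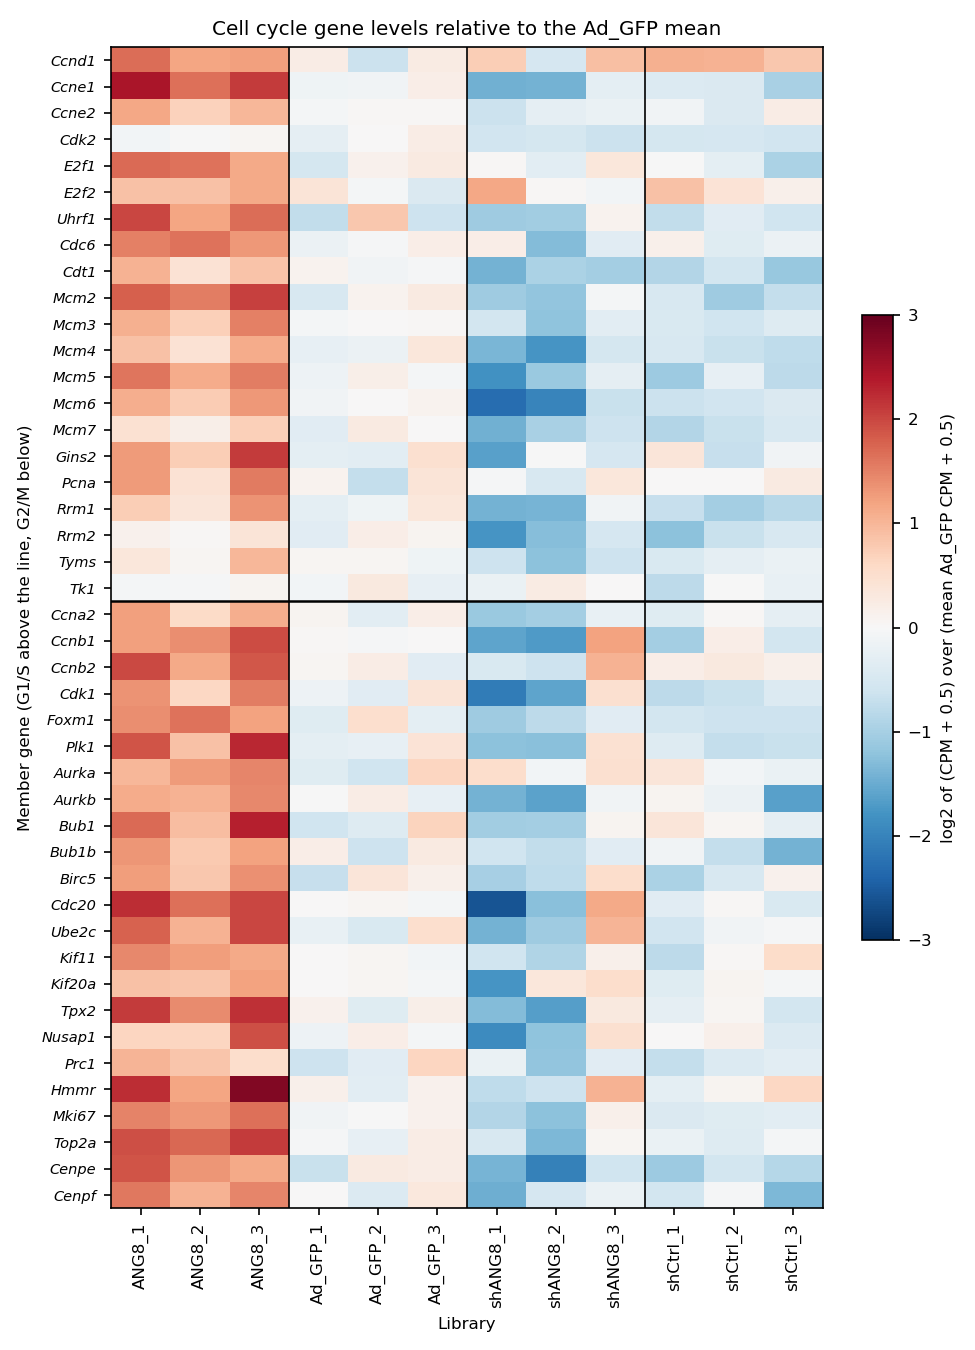
Level of each of the 44 members (rows, G1/S above the line and G2/M below) in each of the 12 libraries (columns), as the log2 of (CPM + 0.5) over (mean Ad_GFP CPM + 0.5). The ANG8 columns are high in nearly all rows, and the shANG8_3 column stands above shANG8_1 and shANG8_2 in most G2/M rows.

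Summed over the 21 G1/S members, the level was 449, 342 and 504 CPM in ANG8, against 203, 234 and 242 CPM in Ad_GFP. Summed over the 23 G2/M members, it was 363, 271 and 399 CPM in ANG8, against 99.96, 105 and 133 CPM in Ad_GFP. The ANG8 libraries lay above the Ad_GFP libraries in both sums. ANG8_2, which had the most mitochondrial counts, was the lowest ANG8 library for 34 of the 44 members, and ANG8_3, which had the fewest, was the highest for 27. Over all tested genes ANG8_3 was the highest ANG8 library for 35.0% and ANG8_2 for 35.6%, and the share with ANG8_2 lowest was not counted. With the mitochondrial share as a covariate, 29 members rose, where 6.78% of all tested genes did. ANG8 had the highest group mean for 19 of 21 G1/S and 23 of 23 G2/M members. The share of all tested genes with their highest mean in ANG8 was not counted, and 34.5% had their lowest mean there.

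**Figure D2:**
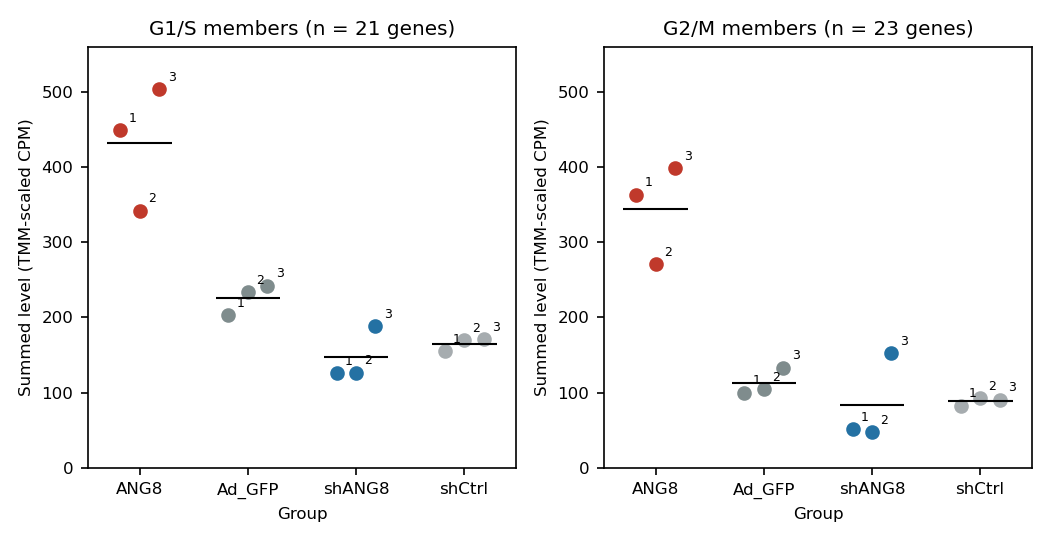
Summed TMM-scaled CPM of the G1/S members and of the G2/M members in each library, by group, with each point 1 library. The ANG8 points sit between 342 and 504 CPM for G1/S and between 271 and 399 CPM for G2/M, above those of the other groups, and shANG8_3 stands at 152 CPM in the G2/M panel, above shANG8_1 and shANG8_2.

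The cyclins of G1 and S entry rose. Ccne1, cyclin E1, which activates CDK2 at S phase entry, stood at 46.6, 26.6 and 36.2 CPM in ANG8, against 7.34, 7.55 and 9.48 CPM in Ad_GFP. The means were 36.4 ± 10.01 CPM in ANG8 and 8.12 ± 1.18 CPM in Ad_GFP (SD, n = 3 each), a 4.48-fold difference with no overlap (2.16 on the log2 scale, SE 0.30, edgeR adjusted p = 0.000405). Ccnd1, cyclin D1, the partner of CDK4 and CDK6, stood at 7.89, 5.41 and 5.64 CPM in ANG8, against 2.53, 1.18 and 2.62 CPM in Ad_GFP (log2 fold change 1.57, SE 0.40, edgeR adjusted p = 0.0160). Ccne2, the other cyclin E, rose by 1.09 on the log2 scale (SE 0.32, edgeR adjusted p = 0.0303). Cdk2, the kinase of cyclins E and A, stood at 15.1, 15.9 and 16.9 CPM in ANG8, against 13.3, 16.1 and 18.8 CPM in Ad_GFP. Its groups overlapped, with a log2 fold change of -0.01 and a 95% interval of -0.36 to 0.34. The Ccne1 call held under all 20 alternatives. That of Ccnd1 was lost without Ad_GFP_2 or ANG8_1 (adjusted p up to 0.0755), and that of Ccne2 under 6 alternatives, among them the loss of any Ad_GFP library, of ANG8_1 or of ANG8_3 (up to 0.122). Exons of Ccnd1 and Ccne2 overlap genes on the other strand, LTO1 over 23.4% and Ints8 over 17.4% of their bases, and the strand setting of the counting is not given in the sources used here.

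Of the E2F factors, E2f1, an activator of replication genes, stood at 14.1, 13.3 and 9.34 CPM in ANG8, against 2.59, 4.37 and 4.91 CPM in Ad_GFP. The groups did not overlap (log2 fold change 1.63, SE 0.32, edgeR adjusted p = 0.0036), and the call held under all 20 alternatives. E2f2, a related activator, had 5.58, 5.57 and 6.79 CPM in ANG8, against 3.80, 2.67 and 1.95 CPM in Ad_GFP, and was not called (log2 fold change 1.09, SE 0.38, edgeR adjusted p = 0.0687). Uhrf1, which guides the maintenance of DNA methylation behind the replication fork, rose by 1.81 on the log2 scale (SE 0.46, edgeR adjusted p = 0.0165). It stood at 15.9, 8.85 and 12.7 CPM in ANG8, against 1.961, 6.66 and 2.15 CPM in Ad_GFP. Its call was lost without Ad_GFP_1, Ad_GFP_3 or ANG8_1, with an adjusted p of up to 0.0713. A near copy, Gm5648, covers 44.3% of the Uhrf1 transcript at 98.3% identity and averaged 0.2 counts of its own.

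Origin licensing and the replicative helicase were represented by 9 members, of which 6 rose, where 7.08% of all tested genes did. Mcm2, a subunit of the MCM helicase, stood at 32.6, 27.0 and 38.7 CPM in ANG8, against 6.33, 9.70 and 10.96 CPM in Ad_GFP. This was a 3.65-fold difference with no overlap between the groups (log2 fold change 1.87, SE 0.29, edgeR adjusted p = 0.000866). Mcm3, Mcm5 and Mcm6, further subunits of the helicase, also rose, by 1.17, 1.52 and 1.08 on the log2 scale. Mcm6 stood at 55.7, 43.7 and 64.1 CPM in ANG8, against 23.8, 25.8 and 27.7 CPM in Ad_GFP. Mcm4 (0.89, SE 0.33, edgeR adjusted p = 0.0806) and Mcm7 (0.47, SE 0.23, edgeR adjusted p = 0.191), subunits of the same ring, were not called. A near copy, Gm5487, covers 72.8% of the Mcm7 transcript at 97.7% identity and averaged 0.4 counts of its own. Cdc6 and Cdt1, which load the ring onto origins, rose by 1.90 and 0.83 on the log2 scale. Gins2, a subunit of the GINS complex of the active helicase, had a log2 fold change of 1.76 (SE 0.58, edgeR adjusted p = 0.0536) and was not called. Exons of Gins2 overlap Gse1 on the other strand over 67.3% of their bases. The calls of Mcm2, Mcm3 and Mcm5 held under all 20 alternatives. Those of Cdc6, Cdt1 and Mcm6 were each lost without any 1 of Ad_GFP_1, Ad_GFP_2, Ad_GFP_3, ANG8_1 or ANG8_3, with adjusted p up to 0.12, 0.139 and 0.119. Cdc6 was also lost without ANG8_2 and in the fit with a mitochondrial covariate, and Mcm6 without shCtrl_1 or shCtrl_2.

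Of the replication clamp and the enzymes of nucleotide supply, 1 of 5 members rose, where 7.08% of all tested genes did. Pcna, the sliding clamp of the DNA polymerases, stood at 48.4, 26.7 and 58.7 CPM in ANG8, against 21.3, 11.8 and 25.8 CPM in Ad_GFP (SE 0.31 around a log2 fold change of 1.19, edgeR adjusted p = 0.0214). The lowest ANG8 library lay just above the highest Ad_GFP library, and the call was lost without Ad_GFP_1, Ad_GFP_2, ANG8_1 or ANG8_3, with an adjusted p of up to 0.0846. It was also lost when only these groups were fitted, at 0.0535. A near-identical pseudogene, Pcna-ps2, covers 51.4% of the Pcna transcript at 99.2% identity, and averaged 4.4 counts of its own. The other 4 were not called. Tk1, the thymidine kinase of the salvage pathway, stood at 28.6, 29.1 and 31.5 CPM in ANG8, against 28.0, 36.5 and 24.9 CPM in Ad_GFP. Its groups overlapped, with a log2 fold change of -0.00 and a 95% interval of -0.40 to 0.39. Rrm1 and Rrm2, the subunits of ribonucleotide reductase, had log2 fold changes of 0.90 (SE 0.34, edgeR adjusted p = 0.0933) and 0.19 (SE 0.28, edgeR adjusted p = 0.706), and Tyms, thymidylate synthase, had 0.54 (SE 0.25, edgeR adjusted p = 0.162). Parts of the Tyms transcript have near copies in other genes, among them Reep3, over 11.2% at 97.7% identity, which averaged 980 counts. Cdk2, Mcm7, Rrm2, Tk1 and Prc1 were not called under any of the 20 alternatives, and the other 14 members not called passed under at least 1.

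Per kilobase of gene length, the members at the highest level in ANG8 were Pcna at 18.6, Ube2c at 15.0 and Ccne1 at 13.7 CPM per kilobase. In Ad_GFP they were Pcna at 8.16, Rrm2 at 7.77 and Tk1 at 5.74 CPM per kilobase. Ccne1 was at rank 7 of the members in Ad_GFP, at 3.05 CPM per kilobase.

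Among the mitotic cyclins, CDK1 and FOXM1, 3 of 5 members rose, where 7.08% of all tested genes did. Ccnb2, cyclin B2, a partner of CDK1, stood at 15.1, 8.11 and 13.9 CPM in ANG8, against 3.61, 4.07 and 2.62 CPM in Ad_GFP (log2 fold change 1.85, SE 0.41, edgeR adjusted p = 0.00737). Foxm1, the forkhead factor of the G2/M programme, stood at 13.1, 15.5 and 11.4 CPM in ANG8, against 3.54, 6.81 and 3.70 CPM in Ad_GFP (log2 fold change 1.51, SE 0.30, edgeR adjusted p = 0.00309). Neither gene overlapped between the groups, and both calls held under all 20 alternatives. Ccna2, cyclin A2, which acts in S phase and G2, rose by 1.08 on the log2 scale (SE 0.32, edgeR adjusted p = 0.0355), and its call was lost without any 1 of Ad_GFP_1, Ad_GFP_2, Ad_GFP_3, ANG8_1 or ANG8_3, with an adjusted p of up to 0.142. Exons of Ccna2 overlap Exosc9 on the other strand over 12.5% of their bases, and Exosc9 averaged 56.2 counts. Cdk1, the mitotic kinase, stood at 28.1, 16.7 and 31.7 CPM in ANG8, against 9.55, 8.29 and 14.1 CPM in Ad_GFP. Ccnb1, cyclin B1, stood at 5.72, 6.47 and 9.83 CPM in ANG8, against 2.21, 2.07 and 2.15 CPM in Ad_GFP. These groups did not overlap either, yet neither gene was called, with log2 fold changes of 1.26 (SE 0.58, edgeR adjusted p = 0.187) for Cdk1 and 1.77 (SE 0.79, edgeR adjusted p = 0.165) for Ccnb1. The fit shared its estimate of the spread with the shANG8 group, where 1 library stood far from the others. Fitted to ANG8 and Ad_GFP only, Cdk1 had an adjusted p of 0.00994 and Ccnb1 of 0.0032. Near copies of Ccnb1, Ccnb1-ps, Gm12856 and Gm8416, cover 51.7%, 52.0% and 51.8% of its transcript at 97.3% to 99.2% identity. They averaged 0.9, 0.7 and 0.0 counts of their own.

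Of the 6 mitotic kinases and checkpoint genes, 3 rose, where 7.08% of all tested genes did. Plk1, polo-like kinase 1, stood at 20.3, 9.84 and 26.6 CPM in ANG8, against 4.11, 4.29 and 7.06 CPM in Ad_GFP (log2 fold change 1.88, SE 0.47, edgeR adjusted p = 0.0191). Aurka, the kinase of spindle poles, and Bub1, a kinase of the spindle checkpoint, rose by 1.35 (SE 0.34, edgeR adjusted p = 0.0138) and 2.26 (SE 0.67, edgeR adjusted p = 0.0321) on the log2 scale. Each of these 3 calls was lost without Ad_GFP_1 or Ad_GFP_2, and those of Plk1 and Bub1 also without ANG8_1 or ANG8_3, with adjusted p up to 0.0909 for Plk1, 0.0676 for Aurka and 0.153 for Bub1. Aurkb and Birc5, the kinase and the survivin subunit of the chromosomal passenger complex, and Bub1b, the checkpoint protein BUBR1, were not called. Their log2 fold changes were 1.39, 1.24 and 1.27, with adjusted p in edgeR of 0.102, 0.0649 and 0.0539. In all 6 genes the ANG8 libraries lay above the Ad_GFP libraries, as they did in 17.9% of all tested genes.

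The activator of the anaphase-promoting complex and its conjugating enzyme were not called, at similar sizes of change. Cdc20, the activator, stood at 19.7, 13.2 and 17.0 CPM in ANG8, against 3.86, 3.998 and 3.70 CPM in Ad_GFP. Ube2c, the enzyme, stood at 42.0, 25.3 and 49.98 CPM in ANG8, against 10.2, 8.59 and 17.4 CPM in Ad_GFP. The groups did not overlap in either gene, with log2 fold changes of 2.11 (SE 0.77, edgeR adjusted p = 0.102) and 1.70 (SE 0.61, edgeR adjusted p = 0.0984). Fitted to ANG8 and Ad_GFP only, both passed, with adjusted p of 0.000408 for Cdc20 and 0.00652 for Ube2c.

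In the spindle and cytokinesis group 3 of 6 members rose, where 7.08% of all tested genes did. Hmmr, a microtubule-binding protein of the spindle, stood at 5.87, 2.62 and 8.92 CPM in ANG8, against 1.01, 0.592 and 1.01 CPM in Ad_GFP, and had the largest log2 fold change of the members, 2.72 (SE 0.65, edgeR adjusted p = 0.0120). Tpx2, which activates Aurora A and nucleates spindle microtubules, stood at 13.7, 8.36 and 14.6 CPM in ANG8, against 3.10, 2.07 and 3.23 CPM in Ad_GFP (log2 fold change 2.12, SE 0.47, edgeR adjusted p = 0.00825). Neither gene overlapped between the groups, and the Tpx2 call held under all 20 alternatives. The Hmmr call was lost without ANG8_3 or Ad_GFP_2, at adjusted p of up to 0.0565. Kif11, the motor that separates the spindle poles, rose by 1.42 on the log2 scale (SE 0.38, edgeR adjusted p = 0.0203), a call lost without any 1 of the Ad_GFP libraries or ANG8_1 (up to 0.0799). Nusap1, which bundles microtubules, Prc1, which organizes the central spindle, and Kif20a, a motor of cytokinesis, were not called, with log2 fold changes of 1.37, 0.98 and 1.24. Exons of Kif20a overlap Cdc23 on the other strand over 29.3% of their bases, and Kif20a was at 0 counts in shANG8_1.

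All 4 members of chromosomes and kinetochores rose, where 7.08% of all tested genes did. Top2a, the topoisomerase that untangles sister DNA, stood at 40.3, 34.6 and 45.3 CPM in ANG8, against 9.87, 8.51 and 11.97 CPM in Ad_GFP. The means were 40.0 ± 5.34 CPM in ANG8 and 10.1 ± 1.74 CPM in Ad_GFP (SD, n = 3 each), with no overlap (log2 fold change 1.98, SE 0.27, edgeR adjusted p = 0.000303). Mki67, the coat protein of mitotic chromosomes used as a marker of cycling cells, stood at 62.4, 54.1 and 69.9 CPM in ANG8, against 20.1, 21.5 and 23.7 CPM in Ad_GFP (log2 fold change 1.51, SE 0.26, edgeR adjusted p = 0.00199). Both calls held under all 20 alternatives. The kinetochore genes Cenpe and Cenpf rose by 1.57 and 1.56 on the log2 scale (edgeR adjusted p = 0.0112 and 0.0305). The Cenpe call was lost without Ad_GFP_1 or ANG8_1 (up to 0.0702), and the Cenpf call also without Ad_GFP_2 or ANG8_3 (up to 0.114).

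**Figure D3:**
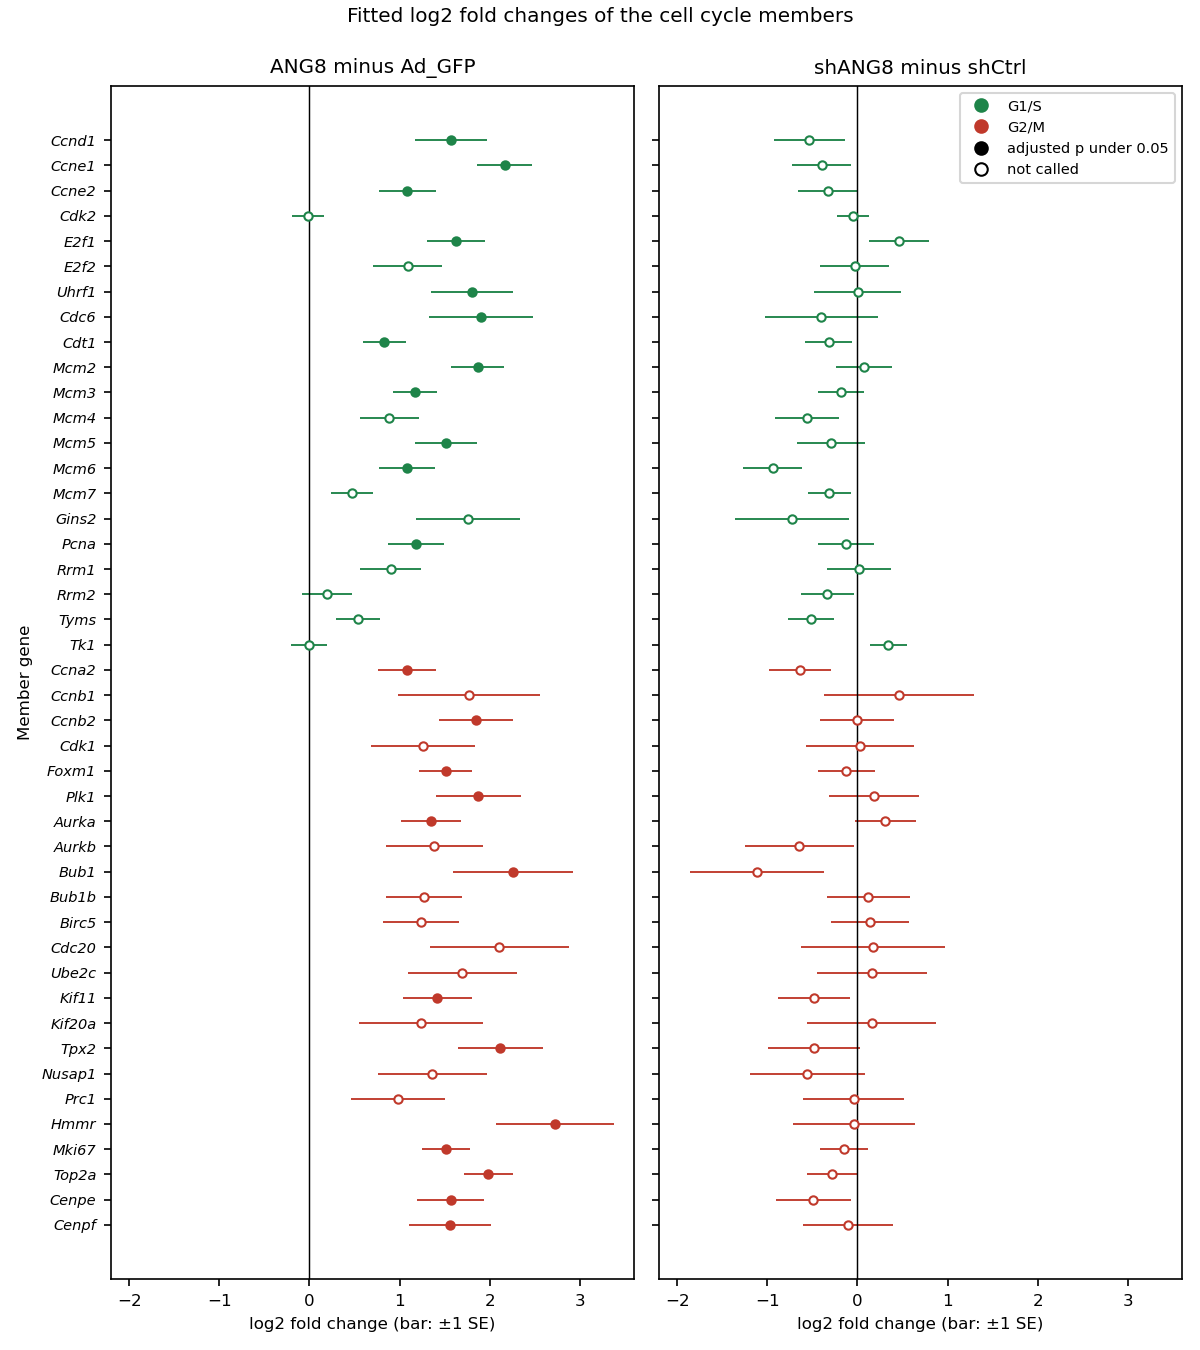
Fitted log2 fold change of each member with ±1 SE, for ANG8 minus Ad_GFP and for shANG8 minus shCtrl, with G1/S and G2/M members in separate colours and filled points for an adjusted p under 0.05. In the ANG8 panel 25 of 44 points are filled and all filled points lie right of 0, and in the shANG8 panel none is filled and the G2/M bars are wide.

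In the plot of all genes, the members lay to the right of the bulk under overexpression. Of the 21 G1/S members 13 had a fitted log2 fold change over 1, as did 22 of the 23 G2/M members. Of all tested genes, 3.45% lay in the bin that starts at 1 and 2.46% in the bin that starts at 1.25. Each bin further right held fewer, and the summed share of all tested genes over 1 was not counted.

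**Figure D4:**
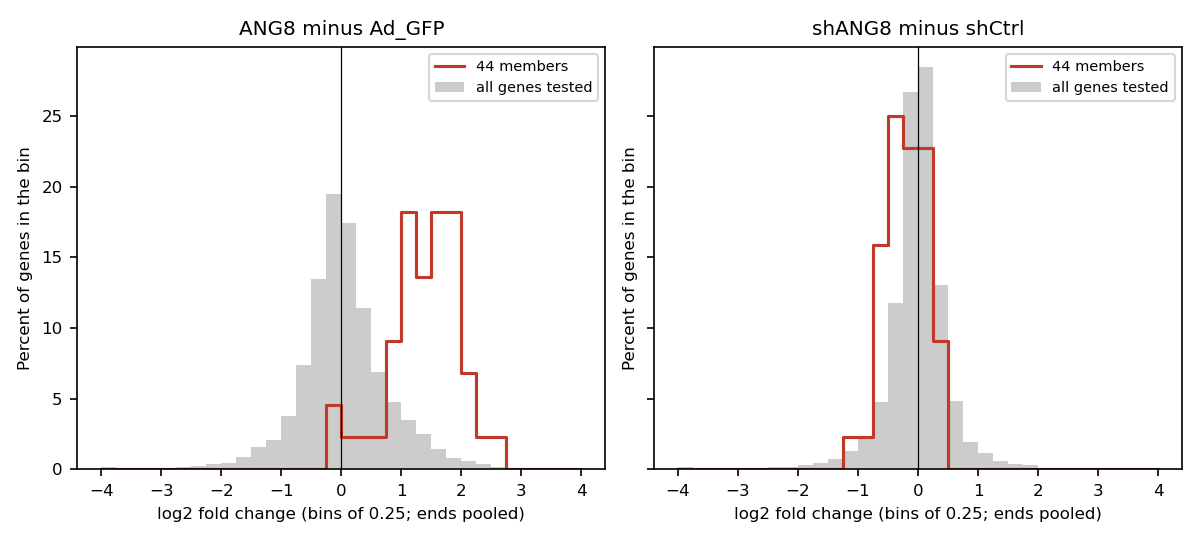
Percent of the members and of all tested genes in bins of 0.25 of the fitted log2 fold change, for each comparison. Under ANG8 minus Ad_GFP the members centre on a median of 1.40 and all genes on -0.00, and under shANG8 minus shCtrl the members have a median of -0.14 and all genes of 0.01.

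Knockdown was examined as shANG8 minus shCtrl. No member was called, where 0.0613% of all tested genes rose and 0.129% fell. At an unadjusted p under 0.05, 1 member was lower and 0 were higher in edgeR, and 0 members were called by DESeq2 and by limma voom. The median log2 fold change of the members was -0.14 (-0.31 in G1/S and -0.04 in G2/M), and 30 of the 44 were negative, against a median of 0.01 over all tested genes. Mcm6 was the member below 0.05 unadjusted, with 4.93, 6.14 and 16.0 CPM in shANG8 and 16.2, 17.0 and 19.0 CPM in shCtrl (log2 fold change -0.94, SE 0.33, edgeR adjusted p = 0.469). Mcm6 and Tyms were the 2 members whose shANG8 libraries all lay below the shCtrl libraries, where 6.78% of all tested genes did so. No member had all shANG8 libraries above the shCtrl libraries, where 6.16% of all tested genes did. Of the 21 G1/S members 15 had their lowest group mean in shANG8, as did 12 of the 23 G2/M members, where 26.9% of all tested genes did. Another 4 G1/S and 8 G2/M members had it in shCtrl, where 20.6% of all tested genes did.

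The shANG8 libraries differed among themselves. Summed over G2/M members, the level was 51.1, 47.7 and 152 CPM in shANG8, against 82.5, 92.5 and 90.4 CPM in shCtrl. Summed over G1/S members, it was 126, 127 and 188 CPM in shANG8, against 155, 170 and 171 CPM in shCtrl. In both sums shANG8_1 and shANG8_2 lay below all shCtrl libraries, and shANG8_3 above them. For single members, shANG8_3 was the highest shANG8 library in 35 of 44, among them 21 of 23 G2/M members, where it was the highest for 31.5% of all tested genes. It lay above every shCtrl library in 15 of 23 G2/M and 8 of 21 G1/S members, where it did so in 26.4% of all tested genes. shANG8_1 lay below every shCtrl library in 34 of the 44 members, where it did so in 31.3% of all tested genes. shANG8_2 did so in 32 members, where it did in 30.4% of all tested genes.

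The standard errors of the knockdown effect reached 0.83 on the log2 scale in G2/M members and 0.63 in G1/S members. Cdc20 stood at 0.227, 1.34 and 9.07 CPM in shANG8, against 2.92, 3.96 and 2.66 CPM in shCtrl. Ccnb1 stood at 0.379, 0.315 and 5.62 CPM in shANG8, against 0.814, 2.53 and 1.29 CPM in shCtrl. Cdk1 stood at 2.12, 3.23 and 15.2 CPM in shANG8, against 5.97, 6.49 and 7.83 CPM in shCtrl. In all 3 genes shANG8_3 lay above the shCtrl libraries and the fold change carried an SE of 0.60 to 0.83 on the log2 scale. Mki67, at 11.5, 8.97 and 24.4 CPM in shANG8 and 15.9, 16.8 and 17.3 CPM in shCtrl, showed the same order. Top2a stood at 7.12, 3.70 and 10.6 CPM in shANG8, against 8.82, 7.58 and 9.73 CPM in shCtrl.

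Without shANG8_3, an alternative that leaves shANG8 with 2 libraries, the knockdown median of the members was -0.69, and 40 of the 44 were negative (18 of 21 G1/S and 22 of 23 G2/M). The median was -0.55 in G1/S and -0.95 in G2/M. Mcm6 was then the only member called (log2 fold change -1.65, SE 0.22, edgeR adjusted p = 0.00198). Ccnb1 had a log2 fold change of -2.13 (SE 0.58, edgeR adjusted p = 0.192), Cdc20 of -2.03 (SE 0.47, edgeR adjusted p = 0.111) and Nusap1 of -2.10 (SE 0.58, edgeR adjusted p = 0.194). The sign of the knockdown value of Ccnb1 and of Cdc20 thus depended on shANG8_3. The levels of Ccnb1 in shANG8_1 and shANG8_2 and of Cdc20 in shANG8_1 were low, as given above. Their fold changes in this fit thus rest on few counts. Without shANG8_1 or shANG8_2 instead, the median was -0.09 or -0.03, with 25 or 22 of the 44 negative. In G2/M it was then 0.14 without shANG8_1 and 0.11 without shANG8_2, and in G1/S -0.19 and -0.18. The same removal of shANG8_3 raised the count of members called under overexpression to 34, with all 25 kept, where 7.51% of all tested genes rose. Angptl8 was lowest in shANG8_3, at 79.2 CPM, and mitochondrial genes took 19.3% of its counts, against 22.7% and 22.9% in shANG8_1 and shANG8_2. Its summed T and NK cell markers were 71.2 CPM, against 69.0 and 50.5 CPM in those libraries, and its summed macrophage markers 498 CPM, against 613 and 326 CPM. The part of these in the level of the members in shANG8_3 was not tested.

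**Figure D5:**
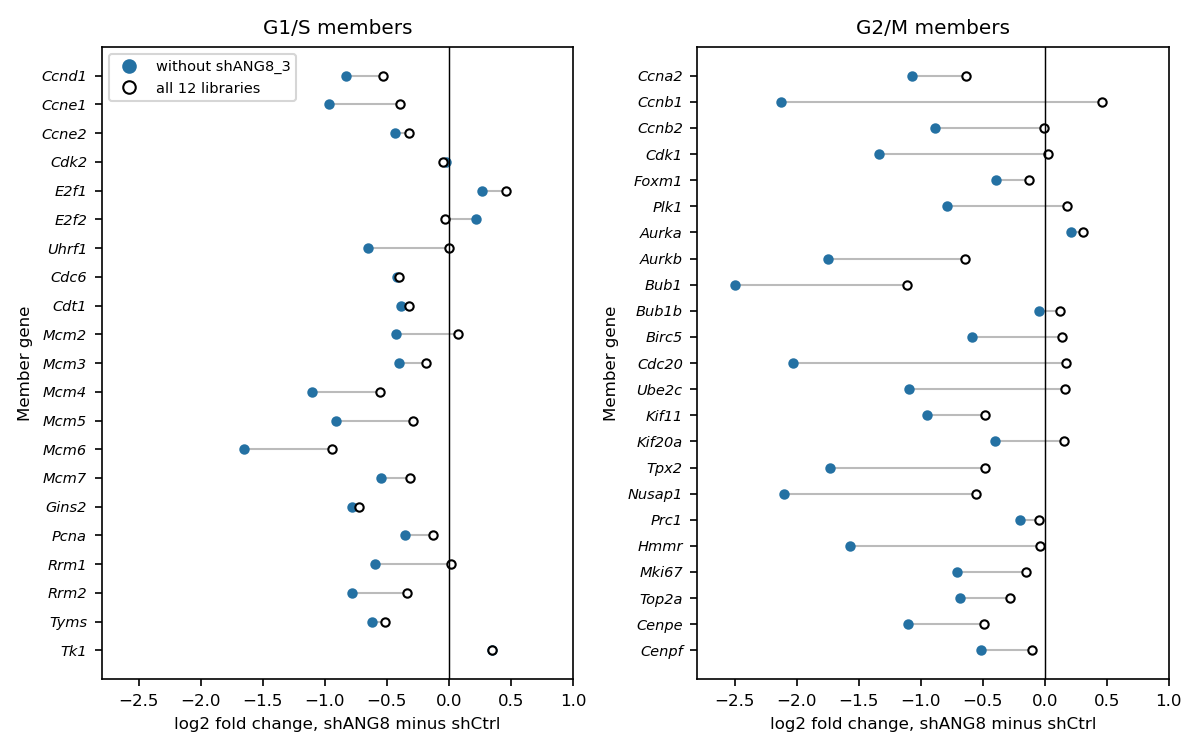
Fitted log2 fold change of shANG8 minus shCtrl for each member with all 12 libraries (open points) and without shANG8_3 (filled points), G1/S and G2/M in separate panels. The filled points lie left of the open points for most members, and the G2/M median is -0.95 without shANG8_3, against -0.04 with it.

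The difference between the effects, (ANG8 minus Ad_GFP) minus (shANG8 minus shCtrl), was above 0 at an adjusted p under 0.05 in 13 members, 6 of G1/S and 7 of G2/M, and in no member below 0, where 6.62% of all tested genes were called, 3.72% above 0 and 2.9% below. Its median over the members was 1.65. The largest called values were 2.60 (SE 0.69) for Tpx2, 2.56 (SE 0.44) for Ccne1 and 2.26 (SE 0.39) for Top2a. The count of called members ranged from 4 without Ad_GFP_1 to 27 without shANG8_3. In those fits 2.23% and 4.75% of all tested genes were called above 0. The count was 7 without Ad_GFP_2, 5 without ANG8_1 and 8 without ANG8_3, with 2.4%, 1.94% and 3.03% of all tested genes above 0. It was 6 without shCtrl_1, 6 without shCtrl_2 and 8 without shCtrl_3, with 2.05%, 2.36% and 2.59% above 0. Without shANG8_1 it was 9, with 3.49% above 0, and without shANG8_2 it was 6, with 2.59% above 0.

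The control groups were set against each other as shCtrl minus Ad_GFP. No member and no gene was called in edgeR, where DESeq2 called 46 genes and 621 genes were higher and 665 lower at an unadjusted p under 0.05. At that unadjusted level 1 member was higher and 8 were lower. The median over the members was -0.40, against -0.02 over all genes. In 16 members every shCtrl library lay below every Ad_GFP library, where 8.45% of all genes did so, and 12 of the 16 were G1/S members. Cdk2 was among them, with 10.99, 11.1 and 10.7 CPM in shCtrl and 13.3, 16.1 and 18.8 CPM in Ad_GFP. Ccnd1 went the other way, with 4.95, 4.85 and 4.10 CPM in shCtrl and 2.53, 1.18 and 2.62 CPM in Ad_GFP (log2 fold change 1.12), the 1 member whose shCtrl libraries all lay above, where 7.66% of all genes did so. The 2 control groups thus had levels of some members that did not overlap, and levels are compared with the control of the same arm. The control virus and any other difference between the arms cannot be told apart here.

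Genes outside the 44 were counted in 5 lists of the same pathway. In ANG8 against Ad_GFP, 7.08% of all tested genes rose and 6.39% fell. Of 50 other mitosis genes, 20 rose and 0 fell in that comparison (median log2 fold change 1.25). Kif22, a chromosome motor, rose by 1.54 (SE 0.26, edgeR adjusted p = 0.00138), with 17.7, 14.3 and 16.4 CPM in ANG8 and 5.82, 5.33 and 5.45 CPM in Ad_GFP. Ect2, the exchange factor that starts cytokinesis, Kifc1, a minus-end motor, Melk, a kinase of dividing cells, and Kif20b rose by 1.84, 1.75, 2.96 and 1.94 on the log2 scale. A near copy, Kifc5b, covers 98.1% of the Kifc1 transcript at 96.8% identity and averaged 34.0 counts of its own, so the Kifc1 value is uncertain. Of 35 other replication genes, 11 rose and 1 fell. Lig1, the ligase of Okazaki fragments, stood at 39.4, 27.7 and 33.2 CPM in ANG8, against 6.90, 8.29 and 13.4 CPM in Ad_GFP (log2 fold change 1.81, SE 0.30, edgeR adjusted p = 0.00116). Chaf1a and Chaf1b, subunits of the chromatin assembly factor CAF-1, rose by 2.71 and 0.98, Pold1, the catalytic subunit of DNA polymerase delta, by 0.90 and Dut, dUTPase, by 0.84. Exons of Chaf1a overlap Ubxn6 on the other strand over 52.5% of their bases. The gene that fell was Mcm10, a replication initiation factor, at 44.8, 49.8 and 34.5 CPM in ANG8 and 82.4, 82.6 and 78.9 CPM in Ad_GFP (log2 fold change -0.92, SE 0.24, edgeR adjusted p = 0.0182). It is named after its values were seen. Without ANG8_1 the counts of called genes in these lists were 6 and 3, without Ad_GFP_1 5 and 4, without ANG8_3 12 and 6, and without Ad_GFP_2 13 and 7. Without these libraries, in the same order, 3.81%, 3.61%, 4.95% and 3.68% of all tested genes rose and 2.76%, 3.48%, 5.4% and 3.79% fell. The calls of Dut, Chaf1b, Mcm10 and Kif20b were each lost without at least 1 of these libraries, with adjusted p up to 0.0886, 0.0946, 0.0616 and 0.0590.

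Regulators upstream were counted in 3 lists, where 7.08% of all tested genes rose and 6.39% fell. Of 17 pocket protein, E2F and DREAM genes, 2 rose, Lin37 (0.65, SE 0.19, edgeR adjusted p = 0.0324), a subunit of the DREAM and MuvB complexes, and Rbl1 (0.83, SE 0.25, edgeR adjusted p = 0.0351), the pocket protein p107. The median of that list was 0.07, and both calls were lost without Ad_GFP_1, Ad_GFP_2, ANG8_1 or ANG8_3, that of Lin37 also without Ad_GFP_3 and that of Rbl1 also in the fit with a mitochondrial covariate (adjusted p up to 0.144 for Lin37 and 0.185 for Rbl1). Of 14 tested D cyclin, CDK4/6 and growth signal genes, 3 rose and 1 fell. The immediate early genes Jun, Egr1 and Fos rose by 1.999, 1.59 and 2.13 on the log2 scale, and the Fos call was lost without Ad_GFP_1, Ad_GFP_2, ANG8_1 or ANG8_2 and in the fit with a mitochondrial covariate (up to 0.0905). Egfr, the receptor of epidermal growth factor, fell, with 75.3, 100.3 and 98.3 CPM in ANG8 and 436, 286 and 300.1 CPM in Ad_GFP (log2 fold change -1.90, SE 0.28, edgeR adjusted p = 0.00059). Of the 5 CDK inhibitors tested out of 7 listed, 1 rose. Cdkn1c, the inhibitor p57, stood at 5.36, 5.08 and 9.89 CPM in ANG8, against 1.52, 1.26 and 2.29 CPM in Ad_GFP (log2 fold change 2.002, SE 0.39, edgeR adjusted p = 0.00299). Cdkn1a, the inhibitor p21 and a target of p53, named after its values were seen, stood at 93.9, 60.3 and 75.8 CPM in ANG8, against 10.7, 19.2 and 24.6 CPM in Ad_GFP, and was not called (log2 fold change 2.08, SE 0.64, edgeR adjusted p = 0.0638). Its groups did not overlap, and its shANG8 values, 2.73, 3.85 and 20.4 CPM against 10.99, 8.75 and 10.4 CPM in shCtrl, again set shANG8_3 apart. In these 5 lists 0 genes were called in shANG8 against shCtrl.

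Markers of the cells that liver RNA can hold were counted in each comparison. In ANG8 against Ad_GFP, 7.08% of all tested genes rose and 6.39% fell. Under overexpression, T and NK cell markers summed to 152 to 175 CPM in ANG8 and 60.6 to 88.6 CPM in Ad_GFP, with 8 of 15 rising and 1 falling, and Ncr1 was at 0 in some libraries. Macrophage and Kupffer cell markers summed to 1137 to 1472 CPM in ANG8 and 467 to 653 CPM in Ad_GFP, with 10 of 14 rising, and Itgam was at 0 in some libraries. Hepatocyte markers summed to 23423, 24756 and 49477 CPM in ANG8, against 42465 to 62584 CPM in Ad_GFP, with 6 of 10 falling. In every library the hepatocyte list had the highest sum of the lists. B cell markers summed to 10.2 to 13.5 CPM in ANG8 and 9.25 to 16.4 CPM in Ad_GFP, endothelial markers summed to 75.5 to 86.3 CPM in ANG8 and 62.0 to 79.0 CPM in Ad_GFP, and 0 genes of either list were called. Neutrophil markers summed to 30.0 to 40.6 CPM in ANG8 and 16.6 to 37.4 CPM in Ad_GFP, and stellate cell markers to 77.6 to 141 CPM in ANG8 and 44.1 to 126 CPM in Ad_GFP. Cholangiocyte markers summed to 68.6 to 132 CPM in ANG8 and 21.2 to 77.2 CPM in Ad_GFP, and 0 genes of these 3 lists were called. Of the 5 erythroid precursor markers tested, 1 fell and 0 rose (median log2 fold change -0.88). The part of these cell types in the rise of the cell cycle members was not tested.

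In the knockdown arm 0 markers were called in edgeR, where 6 T and NK cell and 3 neutrophil markers were lower and 2 macrophage and Kupffer cell markers higher at an unadjusted p under 0.05. T and NK cell markers summed to 50.5 to 71.2 CPM in shANG8 and 85.4 to 108 CPM in shCtrl, with no overlap. Their median log2 fold change was -0.62 and all 15 were negative, and in 8 of 15 every shANG8 library lay below every shCtrl library, where 6.78% of all tested genes did so. Neutrophil markers summed to 9.75 to 13.8 CPM in shANG8 and 22.3 to 23.8 CPM in shCtrl, and cholangiocyte markers to 21.6 to 38.7 CPM in shANG8 and 48.8 to 71.1 CPM in shCtrl, again with no overlap. By single gene, every shANG8 library lay below every shCtrl library in 3 of 4 tested neutrophil and 2 of 5 cholangiocyte markers. Only 3 of 6 listed neutrophil and 3 of 5 cholangiocyte markers had counts in every library, so these sums rest on few genes. Macrophage and Kupffer cell markers summed to 326 to 613 CPM in shANG8 and 370 to 431 CPM in shCtrl, and hepatocyte markers to 53270 to 78507 CPM in shANG8 and 61011 to 79766 CPM in shCtrl, so that these groups overlapped. B cell, endothelial and stellate cell sums overlapped too. The 5 erythroid precursor markers had a median of 0.83. For the difference between the effects, 9 of 15 T and NK cell, 5 of 14 macrophage and Kupffer cell and 1 of 4 tested neutrophil markers were called above 0, and 3 of 10 hepatocyte and 1 of 5 erythroid precursor markers below 0, where 3.72% of all tested genes were above and 2.9% below. The part of these cell types in the knockdown values and in the difference was not tested.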

How the data were processed

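RNA of 12 mouse liver samples was sequenced after Trizol extraction and NEBNext Ultra library preparation, per the labels' protocols. Whole-number counts of reads per gene, not normalized, were deposited by the authors as a table of 54532 genes. The deposited table also gives the authors' gene lengths in bases (an other unit), used for levels per kilobase. Named in the submitters' processing notes are the build mm9, featureCounts 1.5.0-p3 and CASAVA 1.8.2, while 43 of the 44 members have coordinates identical to GENCODE vM21, an annotation of GRCm38. Aligner, strand setting and annotation were not given in the sources used here.

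Counts were analysed with edgeR 4.0.16 in R 4.3.3. Filtering used filterByExpr, scaling used TMM, and a robust quasi-likelihood fit was made to all 12 libraries, tested on simulated data first. Benjamini-Hochberg adjustment ran over the 14686 genes tested, with calls under 0.05. The standard error is the absolute log2 fold change divided by the square root of F, and 95% intervals are 1.96 SE to each side. SD values are over 3 libraries. Alternatives were RLE scaling, scaling without mitochondrial genes, no filter, DESeq2 1.42.0, limma voom 3.58.1, fits to the groups of a comparison, a mitochondrial covariate, the replicate number as a block and leaving out each library. In 13 members some library held under 10 counts, which limits precision. No libraries of a group looked like copies (chi-square per gene 13.9 or more). Exon overlaps and near copies were checked against the reference annotation and with blastn 2.17.0.

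The members and all lists were chosen with earlier results of these data known. All 44 members could be named. Of the other cell cycle lists, up to 5 called genes with the smallest p were named, with Mcm10 and Cdkn1a outside this rule. Promoters were those of the 3 called members of each class with the smallest p and an entry, plus Mcm3. A gene of the erythroid precursor list, and the summed level of that list, are not reported here.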

Additional observations from a re-analysis of the deposited data

Results flagged for a closer look

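In 13 members the effect of the overexpression virus differed from that of the knockdown virus by the test of the difference itself in edgeR. All 13 values were above 0, where 3.72% of all tested genes were called above 0 and 2.9% below. Each value is the ANG8 minus Ad_GFP log2 fold change less the shANG8 minus shCtrl log2 fold change. Among G1/S members it was 2.10 for Ccnd1 (adjusted p = 0.0323), 2.56 for Ccne1 (adjusted p = 0.00363), 1.798 for Mcm2 (adjusted p = 0.0196), 1.36 for Mcm3 (adjusted p = 0.0282), 1.81 for Mcm5 (adjusted p = 0.0441) and 2.02 for Mcm6 (adjusted p = 0.0186). Among G2/M members it was 1.72 for Ccna2 (adjusted p = 0.0383), 1.63 for Foxm1 (adjusted p = 0.0319), 1.90 for Kif11 (adjusted p = 0.0475), 2.60 for Tpx2 (adjusted p = 0.0349), 1.67 for Mki67 (adjusted p = 0.0169), 2.26 for Top2a (adjusted p = 0.00327) and 2.06 for Cenpe (adjusted p = 0.0364). For each of these genes the ANG8 minus Ad_GFP change was itself called higher, and no shANG8 minus shCtrl change was called. The calls of Ccne1, Mki67 and Top2a held under all 19 alternatives of this comparison. Those of the other 10 were lost under 1 to 12 of them, with the highest adjusted p from 0.0512 for Mcm6 to 0.130 for Kif11. The knockdown side of each value includes shANG8_3, without which all 13 calls were kept and 14 more members were called. In that fit 4.75% of all tested genes were called above 0. The loss of any other library kept fewer, with 7 kept without shANG8_1 and 6 without shANG8_2. Without shCtrl_1, shCtrl_2 or shCtrl_3, 6, 6 and 7 were kept. In the other arm 4, 6 and 9 were kept without Ad_GFP_1, Ad_GFP_2 or Ad_GFP_3, and 5, 10 and 8 without ANG8_1, ANG8_2 or ANG8_3.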

How the results depend on the processing

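Of the 25 members called under overexpression, 10 were called under all 20 alternatives (Ccne1, E2f1, Mcm2, Mcm3, Mcm5, Ccnb2, Foxm1, Tpx2, Mki67 and Top2a), and 15 lost the call under 2 to 7, mostly without an Ad_GFP library, ANG8_1 or ANG8_3. No result turned its direction once called. Leaving out 1 library at a time, called members ranged from 12 to 34 under overexpression, 0 to 1 under knockdown and 4 to 27 for the difference, and called genes from 995 to 2164 under overexpression, 473 to 1227 for the difference and 0 to 10 for the controls. The knockdown median of members ranged from -0.69 to -0.026 and the difference median from 1.36 to 2.26. Called genes of the other lists ranged from 1 to 2 (CDK inhibitors), 0 to 3 (pocket proteins), 3 to 13 (replication) and 5 to 24 (mitosis), and 0 to 1 for mitosis under knockdown. Without the filter, 1 member and 132 genes were called under knockdown, 25 and 1510 for the difference and 1 and 96 for the controls, and 2 D cyclin and growth genes under knockdown. DESeq2 called 102 genes under knockdown, 22 members and 1541 genes for the difference and 46 genes for the controls. It called 2 CDK inhibitors under overexpression, as did limma voom and the fit of these groups only. The mitochondrial covariate gave 47 genes under knockdown and 1 pocket protein gene under overexpression. With the replicate block, 32 members were called under overexpression (all 25 kept, with E2f2, Mcm4, Gins2, Rrm1, Bub1b, Birc5 and Ube2c added) and 19 for the difference (all 13 kept), along with 55 genes under knockdown, 1550 for the difference and 5 for the controls. Calls over all tested genes grew too: under overexpression 8.89% rose and 8.82% fell with the block, against 7.08% and 6.39% in the main fit. For the difference, 5.52% were above 0 and 5.04% below with the block. Same-numbered libraries correlated at -0.07 to 0.15 between ANG8 and Ad_GFP and at 0.03 to 0.19 between shANG8 and shCtrl, and over all group pairs 10 of 18 correlations were over 0.1, the highest 0.26. As a hint from the data and not the design, 10 of 12 libraries correlated best with their own number, and the labels tie the numbers to nothing. For each of these, the cause was not tested.

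With 3 libraries a group, the G2/M knockdown effects had SE of 0.27 to 0.83. That of Cdk1 was 0.60, and 0.34 without shANG8_3. A fit to 2 groups could not give the difference, which needs all 4.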
